A study of Homo sapiens with 7 samples.

Results

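The GATA6 peaks of LS174T cells on chromosomes 16, 17, 19 and 22 are described here. They were taken from the deposited peak list by chromosome name alone, with no measured value used, and number 670 of the 7568 peaks of the list (8.85%). Chromosome 16 carried 175 of them, chromosome 17 carried 265, chromosome 19 carried 160 and chromosome 22 carried 70. A further peak on an unlocalised contig of chromosome 17 was not counted. Chromosomes 4, 13 and 18, which hold few genes for their size, served as the comparison with 856 peaks.

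LS174T is an established human colorectal carcinoma cell line, here grown with 10% serum, with no other treatment or genotype named in the labels. GATA6 was precipitated with an anti-GATA6 antibody in 3 libraries, and there was 1 input library, all from cells fixed for 15 min in 1% formaldehyde. The labels do not say whether the 3 libraries came from separate cultures. Since the deposited list gives 1 set of values for the GATA6 libraries as a whole, replicate spread could not be measured for any peak, and library depth is unknown. Libraries of H3K27ac, H3K4me3 and H3K4me1 belong to the same study and were not analysed here, with 1 library each.

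GATA6 is a zinc-finger transcription factor that binds DNA sites with a GATA core and acts in the development and upkeep of the gut epithelium and other endoderm-derived tissues. Much of the binding of such factors falls in enhancers, which can lie far from the genes they act on, within introns or between genes. Human chromosomes differ widely in how densely their genes are packed: chromosome 19 is the extreme case, with large arrays of KRAB zinc-finger repressor genes, whereas chromosomes 4, 13 and 18 contain long stretches with few genes. Chromosomes 13 and 22 are acrocentric, with short arms made mainly of repeats.

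The label gene-rich was checked against the RefSeq gene table, whose assembly is GRCh38.p14 and differs from the hg19 build of the peaks, so that only the chromosome of each gene was used. Chromosome 19 had 1451 protein-coding genes, chromosome 17 had 1169, chromosome 16 had 854 and chromosome 22 had 451. Divided by the length from a chromosome's first summit to its last, these were 25.1 genes per Mb on chromosome 19, 16.5 on chromosome 22, 14.7 on chromosome 17 and 9.52 on chromosome 16. In that measure they ranked 1, 2, 3 and 5 of 23 chromosomes. All genes of a chromosome were counted, but the length was only its summit span, 27.3 Mb on chromosome 22 and 79.4 Mb on chromosome 17. The values, and the order of these chromosomes, thus depend in part on where peaks fall. Chromosomes 4, 18 and 13 had 4.04, 3.62 and 3.61 genes per Mb and ranked 21, 22 and 23. Of the protein-coding genes of chromosome 19, 250 had a symbol of ZNF and a number, against 30 on chromosome 16, 11 on chromosome 17 and 4 on chromosome 22.

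Peaks per gene were low on the 4 chromosomes and high on chromosomes 4, 13 and 18, a contrast that the choice of chromosomes by gene content largely sets: genes per Mb were 15.4 against 3.84, while peaks per Mb were 2.64 against 2.39. Chromosome 19 had 11.0 peaks per 100 protein-coding genes, the lowest of 23 chromosomes, and chromosome 22 had 15.5, the next lowest. Chromosomes 16 and 17 had 20.5 and 22.7. In contrast, chromosomes 4, 13 and 18 had 65.1, 59.8 and 56.7 peaks per 100 genes, the 3 highest values of the genome. Across the 23 chromosomes, peaks per Mb and genes per Mb gave a Spearman rho of 0.33 and a Pearson r of 0.27; these points share 1 list, and both measures share the span as denominator. Chromosome 17 ranked 1 in peaks per Mb and 3 in genes per Mb, whereas chromosome 19, with rank 1 in genes, ranked 10 in peaks.

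**Figure D1:**
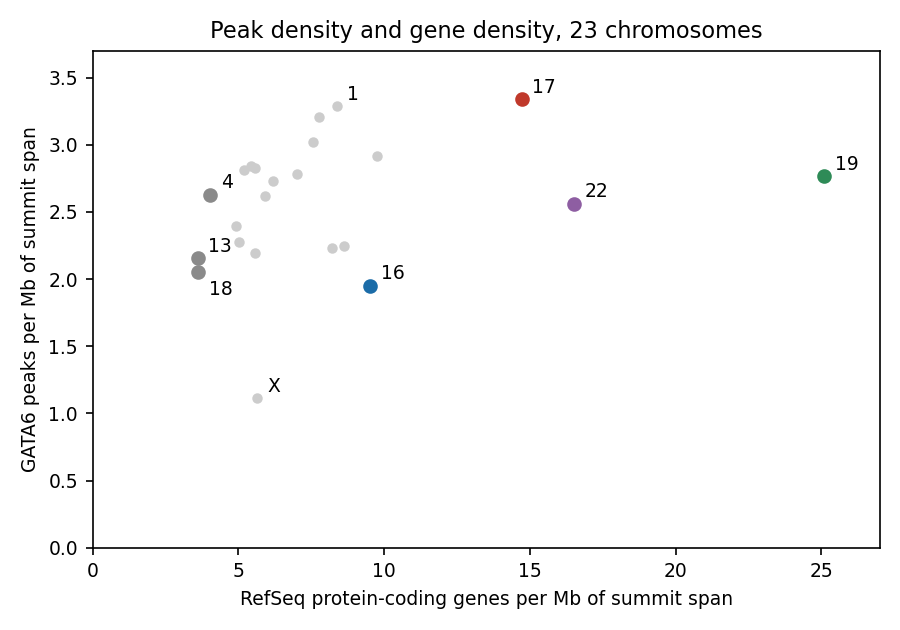
Peaks per Mb (vertical axis) against RefSeq protein-coding genes per Mb (horizontal axis), both over the span between the first and last summit, with 1 point per chromosome; chromosomes 16, 17, 19 and 22 are coloured and 4, 13 and 18 dark grey. Chromosome 19 lies farthest to the right, at 25.1 genes per Mb, but at 2.77 peaks per Mb it is in the middle of the vertical range.

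Over the summit spans, GATA6 peaks lay at 3.34 per Mb on chromosome 17, 2.77 on chromosome 19, 2.56 on chromosome 22 and 1.95 on chromosome 16. Chromosome 17 ranked 1 and chromosome 16 ranked 22 of 23, so the 4 gene-rich chromosomes took in nearly the whole range of the genome, below which only chromosome X remained, at 1.11. Chromosomes 19 and 22 ranked 10 and 14. The gene-poor chromosomes had 2.63 (chromosome 4), 2.16 (chromosome 13) and 2.05 (chromosome 18) peaks per Mb. Together, the 4 chromosomes held 2.64 peaks per Mb, against 2.39 on chromosomes 4, 13 and 18 and 2.70 on the other autosomes.

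Windows of 5 Mb showed how uneven these densities were. Full windows averaged 3.35 ± 0.493 peaks per Mb on chromosome 17 (SE over 15 windows), 2.78 ± 0.418 on chromosome 19 (10 windows), 2.40 ± 0.374 on chromosome 22 (5 windows) and 1.73 ± 0.303 on chromosome 16 (16 windows). Within chromosome 17 they ran from 0.4 to 7.4 peaks per Mb with a median of 3.4. On chromosome 16 they ran from 0 to 4.0 with a median of 1.8, which leaves out its densest window, from 85 to 90 Mb, at 5.29 per Mb, since only 4.91 Mb of it lay within the span. They ran on chromosome 19 from 0.6 to 5.2 with a median of 2.7, and on chromosome 22 from 1.4 to 3.6 with a median of 2.2. The windows of the 4 chromosomes overlapped with each other and with those of chromosome 4 (0.6 to 7.2), chromosome 13 (0.2 to 6.8) and chromosome 18 (0.8 to 4.4).

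**Figure D2:**
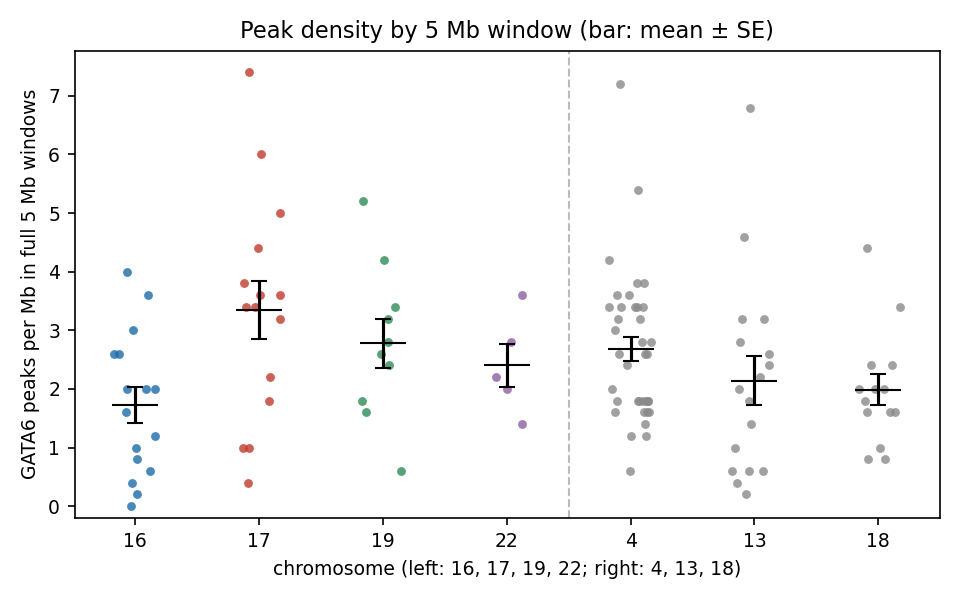
GATA6 peaks per Mb in each full 5 Mb window (points, spread sideways at random) for 7 chromosomes, with the mean and its SE over windows in black. The window means of chromosomes 16 and 17, 1.73 and 3.35, exclude windows cut by the ends of the span, among them the densest of chromosome 16 at 5.29, and the windows of all 7 chromosomes overlap.

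The density of the 4 gene-rich chromosomes did not pass the test against chromosomes 4, 13 and 18. A quasi-Poisson fit across n = 598 windows of all chromosomes gave a ratio of 1.15 (95% interval 0.910 to 1.46, adjusted p = 0.600 over 5 measures). An increase of up to 1.46 times is thus within the interval. The contrast set 54 gene-rich against 74 gene-poor windows and gave each chromosome of a set equal weight, so its ratio is not that of the pooled densities. The variance of the window counts was 4.23 times that of a Poisson count. Chromosome 17 against 16 gave the widest gap among the 6 pairs of the 4: chromosome 16 had 0.585 times the density of chromosome 17 (0.394 to 0.866), and with adjustment over 30 pair tests the fit across n = 598 windows gave an adjusted p = 0.226. When the largest peak-free interval was taken out of each span, chromosome 16 stood at 2.26 and chromosome 17 at 3.56 peaks per Mb.

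Density also differed along each chromosome. Chromosome 16 had its largest peak-free interval, 12.2 Mb, between the summits at 35131769 and 47333768. Before it lay 60 peaks at 1.72 per Mb and after it 115 at 2.70 per Mb. From 65 to 90 Mb, chromosome 16 held 87 of its 175 peaks (49.7%), whereas the 20 Mb from 30 to 50 Mb held 9. Its last 5 Mb, from 85 to 90 Mb, were the fullest window with 26 peaks and included its 2 highest.

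On chromosome 17, the largest peak-free interval ran for 4.87 Mb from the summit at 21250115 to that at 26124964. Density was 2.66 per Mb on the side before it (54 peaks) and 3.89 per Mb on the side after it (211 peaks). The stretch from 55 to 65 Mb alone held 67 peaks, 25.3% of the chromosome. Chromosome 19 differed from both. Its interval of 4.11 Mb, from 24324555 to 28431995, separated 70 peaks at 3.00 per Mb from 90 peaks at 2.96 per Mb, so both sides were about equally dense. No centromere position was used, so the sides are given by the interval and not by arm.

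Chromosome 22 had no peak before 19843519, and its last summit lay at 47169868. Its largest peak-free interval between summits, 1.99 Mb from 43500313 to 45486530, lay near the end of this span. Before it lay 61 peaks at 2.58 per Mb, and after it 9, over 1.68 Mb, at 5.35 per Mb. Each side was measured from its own first summit to its own last, so any peak-free stretch beyond the last summit was left out. The value of 5.35 thus rests on 9 peaks over a short, trimmed span. The stretch from 25 to 40 Mb held 43 peaks (61.4%). None of these differences between sides or stretches was tested, and the stretches were chosen after their values were seen.

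Hotspots, defined as 1 Mb bins with at least 10 summits, were found on chromosome 17 and not on the other members. Chromosome 17 had 3 among 67 occupied bins (4.48%), which is near the share of all bins given next. Chromosomes 16, 19 and 22 had only 59, 49 and 26 occupied bins, and chromosomes 20 and X also had no hotspot. Of the 201 occupied bins of the 4 chromosomes, 3 were hotspots, against 3.67% of the 2153 occupied bins of chromosomes 1 to 22 and X. Chromosomes 4, 13 and 18 had 10 hotspots among 259 bins. The fullest bin of chromosome 16 held 8 summits, in both the bin from 85 to 86 Mb and that from 89 to 90 Mb. On chromosome 19 the fullest 3 bins, from 39 to 40, 46 to 47 and 49 to 50 Mb, held 9 each, and on chromosome 22 the bin from 29 to 30 Mb held 7. With 8 summits as the limit, the 4 chromosomes had 14 such bins, and with 15 summits they had 1.

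That 1 bin, on chromosome 17 from 63 to 64 Mb, held 23 peaks, which is 8.68% of the chromosome's peaks. Their summits ran from 63058748 to 63780095, and neighbouring summits were a median of 23.3 kb apart. Of the 23, 10 had another summit within 10 kb. That is a larger share than the 27.9% of chromosome 17 and the 27.2% of all peaks, in a bin picked for its count. Heights ran from 10 to 47 fragments with a median of 18, and the local background averaged 1.53 fragments. The highest were a pair whose summits lay 565 bp apart, from 63286136 to 63286539 and from 63286675 to 63287112, each with 47 fragments. Peaks of 44, 43 and 45 fragments followed at 63366803, 63397735 and 63779944. Without this bin chromosome 17 had 3.09 peaks per Mb.

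**Figure D3:**
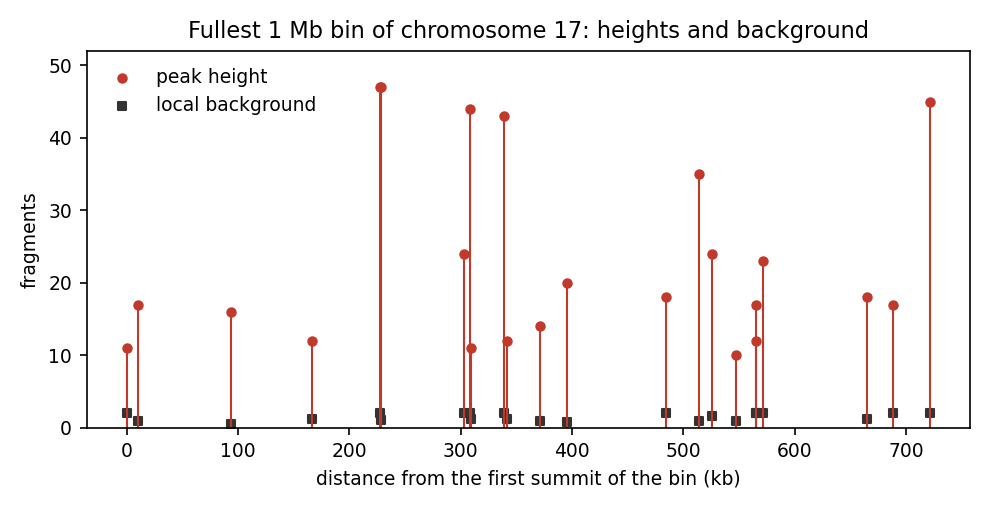
Height (red) and local background (black squares), both in fragments, of the 23 peaks in the fullest 1 Mb bin of chromosome 17, by distance from its first summit in kb. Peaks of 43 to 47 fragments stand among others of 10 to 35, and the background stays at or below 2.10 throughout.

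The other hotspots of chromosome 17 were smaller. The bin from 41 to 42 Mb held 11 peaks with heights of 9 to 34 and a median of 14. The bin from 10 to 11 Mb held 10, with heights of 8 to 64 and a median of 15.5. It contained a cluster of 4 peaks from 10372070 to 10382368, with heights of 32, 10, 64 and 21 in order. The peak of height 64 in it was 969 bp wide, the widest of the 4 chromosomes. A further cluster of 4 peaks, from 16189385 to 16201982, had heights of 22, 12, 33 and 25.

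These were the 2 clusters of 4 or more peaks linked within 10 kb on the 4 chromosomes, of 35 in the genome. At a linking distance of 5 kb there were 0, and at 20 kb there were 6. Groups of at least 3 peaks numbered 18 on the 4 chromosomes, of 177 on chromosomes 1 to 22 and X. The 4 chromosomes held 670 of the 7562 peaks there. Chromosomes 4, 13 and 18 had 16 groups. Of the 18 groups, 12 lay on chromosome 17, 3 on chromosome 19, 2 on chromosome 22 and 1 on chromosome 16. Chromosome 12 also had 12. In several groups, 1 peak stood over smaller ones. From 55927328 to 55938690 on chromosome 17 the heights were 77, 25 and 13. From 31613522 to 31624121 on chromosome 22 they were 23, 72 and 13, and from 37965436 to 37966533 on the same chromosome they were 50, 14 and 10, the tightest group at 1098 bp. Other groups were level, such as that on chromosome 19 from 41665109 to 41673406 with 23, 30 and 34, and that on chromosome 17 from 58243374 to 58247997 with 16, 17 and 21.

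Spacing was described by the share of close neighbours and by the distances between them. Of all 7562 peaks, 27.2% had another summit within 10 kb. The count was 45 of 160 on chromosome 19 (28.1%), 74 of 265 on chromosome 17 (27.9%), 35 of 175 on chromosome 16 (20.0%) and 10 of 70 on chromosome 22 (14.3%), the lowest share of the genome. Neighbouring summits were a median of 101 kb apart on chromosome 17, 171 kb on chromosome 22, 182 kb on chromosome 19 and 183 kb on chromosome 16. Chromosomes 16 and 19 thus had almost the same median distance although their mean distances were 515 and 364 kb.

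The median divided by the mean distance describes how evenly peaks are laid out, and positions drawn evenly and independently would give about 0.693. Chromosome 19 had 0.502, the highest of 23 chromosomes, and chromosome 22 had 0.432. Chromosomes 16 and 17 had 0.355 and 0.336, while chromosome 13 had the lowest value, 0.210. By this measure chromosome 19 was the nearest to an even layout, but its share of peaks with a neighbour within 10 kb, 28.1%, was not low, and by that share chromosome 22 was the least clustered. The most isolated peak of the 4 chromosomes lay on chromosome 16 from 63647819 to 63647997, with 12 fragments and 1.51 Mb to its nearest neighbour. At the other end, the closest pairs of summits were 244 bp apart on chromosome 22, 266 bp on chromosome 17, 274 bp on chromosome 16 and 371 bp on chromosome 19.

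The distance to the nearest other summit had a median of 96.2 kb on chromosome 16, 68.8 kb on chromosome 22, 43.5 kb on chromosome 19 and 35.6 kb on chromosome 17. Quartiles were wide, from 8.18 to 205 kb on chromosome 19 and from 18.9 to 175 kb on chromosome 16. A linear mixed fit of the log2 distance across n = 7562 peaks, with the 5 Mb window as a random term, gave a ratio of 1.09 (0.777 to 1.54) for the gene-rich over the gene-poor chromosomes, with an adjusted p = 0.984. The interval is wide, so neither a shorter nor a longer distance can be read from it.

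Median heights lay within 2 fragments of each other on gene-rich and gene-poor chromosomes. The height is the number of fragments piled up at the summit. Its median was 14 on chromosome 16 (interquartile range 10 to 21), 15 on chromosome 17 (11 to 24), 15 on chromosome 19 (11 to 21) and 16 on chromosome 22 (12 to 22.75). Chromosomes 4, 13 and 18 had medians of 15, 16 and 15. The mixed fit across n = 7562 peaks gave a ratio of 1.00 (0.945 to 1.07, adjusted p = 0.984); the interval is narrow. A single height is far less certain: 15 fragments have a 95% Poisson interval of 8.40 to 24.7, which covers counting error only.

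In relative terms, the upper tail of the heights differed more than the middle. Peaks of at least 41 fragments, the 95th percentile of the list, made up 5.29% of all 7562 peaks. Chromosome 17 held 28 of them among 265 peaks (10.6%, exact binomial 95% interval 7.14 to 14.9), the highest share of 23 chromosomes. Chromosomes 1 and 15 came next, at 8.03% (6.26 to 10.1) and 7.29% (4.38 to 11.3), with intervals that overlapped that of chromosome 17. Chromosomes 16, 19 and 22 held 4 each, which is 2.29% (0.626 to 5.75), 2.50% (0.685 to 6.28) and 5.71% (1.58 to 14.0). The intervals of chromosomes 16 and 19 did not overlap that of chromosome 17. Chromosomes 4, 13 and 18 together held 28 of 856 (3.27%). The threshold was chosen with the heights in view, neighbouring peaks are not independent, and the shares were not tested.

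**Figure D4:**
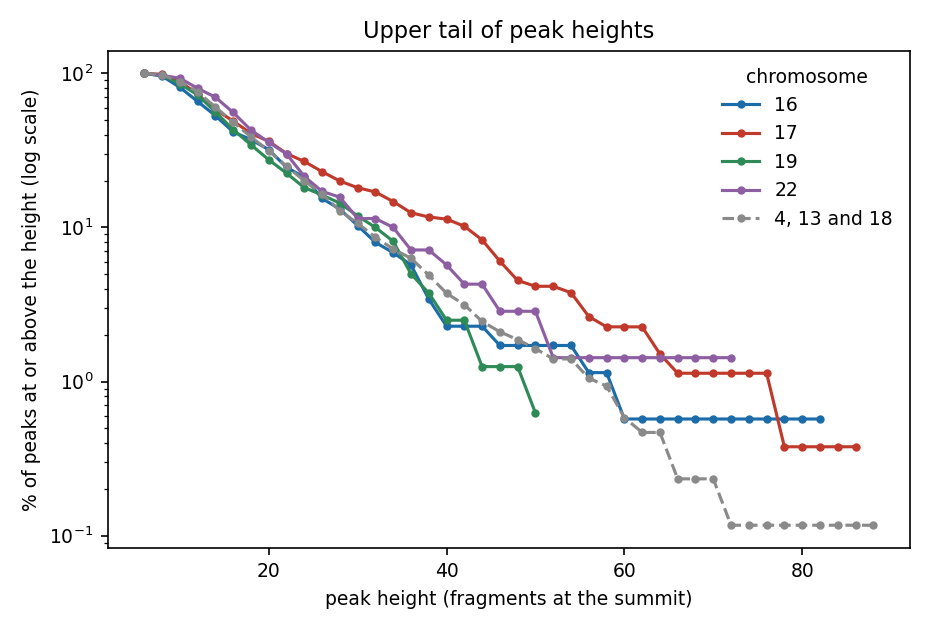
Share of peaks at or above each height (vertical axis, log scale) by height in fragments (horizontal axis), for chromosomes 16, 17, 19 and 22 and for 4, 13 and 18 pooled (grey). At 14 fragments the lines run from 53.1% on chromosome 16 to 70.0% on chromosome 22. At 40 fragments chromosome 17 is at 11.3%, against 2.29% on chromosome 16, 2.50% on chromosome 19, 5.71% on chromosome 22 and 3.74% on the pooled chromosomes.

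The tall peaks of chromosome 17 were not confined to its hotspot. The bin from 63 to 64 Mb contributed 5 of the 28, and the stretch from 55 to 65 Mb contributed 12. Before the largest peak-free interval there were 4 among 54 peaks, and after it 24 among 211, a split that was not tested. The highest was that from 36070273 to 36070638, with 87 fragments (95% Poisson interval 69.7 to 107) over a background of 2.00, a fold of 43.6. It ranked 7 in the whole list. Next were the peak from 55927328 to 55927816, with 77 fragments (60.8 to 96.2) and a fold of 77.2, and that from 61753311 to 61753650, with 76 fragments (59.9 to 95.1) and a fold of 62.2. Their intervals overlapped, so the order of the 3 was not resolved. The largest fold of the chromosome, 105, belonged to the peak from 34842262 to 34842583, with 55 fragments over a background of 0.524.

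Chromosome 16 had few tall peaks but the largest fold of the 4 chromosomes. Its highest peak, from 85568983 to 85569445, had 83 fragments (66.1 to 103) over a background of 0.698, a fold of 119. These were followed by 58 fragments (44.0 to 75.0) from 85950081 to 85950401 and 54 fragments (40.6 to 70.5) from 27214650 to 27214963. Both of the highest lay in the bin from 85 to 86 Mb, where the median height of the 8 peaks was 11.5. The widest peak of chromosome 16, 642 bp from 70478147 to 70478788, had 34 fragments.

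Chromosome 19 had few tall peaks, but its share of 2.50%, rank 20 of 23, was not particular to it. Chromosomes 16, 8, 4 and 6 had 2.29%, 2.01%, 2.79% and 2.81%. The highest peak of chromosome 19, from 35497218 to 35497581, had 50 fragments (37.1 to 65.9). Only chromosome X had a lower maximum, 42, and a maximum rests on a single peak. The next on chromosome 19 had 48 fragments from 39303659 to 39303989 and 43 from 33857055 to 33857402. Its 4 tall peaks all lay after the largest peak-free interval, between 33 and 40 Mb, and the 70 peaks before that interval held none. With so few tall peaks, this split is uncertain, and it was not tested. The largest fold of chromosome 19 was 46.9, at the peak from 39892006 to 39892314 with 27 fragments. The widest, 821 bp from 33795790 to 33796610, had 33 fragments.

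On chromosome 22 the highest peak, from 31616240 to 31616640, had 72 fragments (56.3 to 90.7), but its background of 2.99 gave it a fold of only 24.1. The peaks from 37965436 to 37965867 and from 29308205 to 29308616 followed with 50 and 45 fragments and folds of 47.7 and 15.0. The largest fold, 59.0, belonged to the peak from 46479247 to 46479583, with 35 fragments. All 4 tall peaks lay before 38 Mb.

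Widths differed little between the chromosomes. The median was 259 bp on chromosome 17, the highest of 23 chromosomes together with chromosome 15, and 237 bp on chromosome 16, the lowest. Chromosomes 19 and 22 had medians of 246.5 and 250.5 bp. The narrowest width in the list, 175 bp, was taken by 58 of the 670 peaks (8.66%), against 10.0% on chromosomes 4, 13 and 18 and 9.03% in the list, so the share was near that of the list. Chromosome 22 had 3 such peaks among 70 (4.29%). The ratio of widths between gene-rich and gene-poor chromosomes was 1.00 (0.964 to 1.04, mixed fit across n = 7562 peaks, adjusted p = 0.984). Width and height went together within each of the 4 chromosomes, at a Spearman rho from 0.65 on chromosome 16 to 0.77 on chromosome 22, across peaks of 1 list that are not independent.

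Local background was the 1 measure of 5 that passed the test between gene-rich and gene-poor chromosomes, and the gap lay in its lowest and highest classes. It is the height divided by the deposited fold, in fragments, and was read as the control level around a peak; no source used here names the control. Its mean was 1.10 on chromosome 19, 1.17 on chromosome 16, 1.23 on chromosome 22 and 1.25 on chromosome 17, ranks 22, 20, 19 and 18 of 23. Chromosomes 13, 4 and 18 had 1.29, 1.31 and 1.38, and the other autosomes together 1.39. The median background was 0.998 on both sets, so the typical peak had the same background. By the mean, each of the 4 gene-rich chromosomes lay below each of the 3 gene-poor ones, although the SDs over peaks, from 0.659 to 0.963 among these 7 chromosomes, were far larger than the gaps.

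In the mixed fit across n = 7562 peaks, the background of the gene-rich chromosomes was 0.893 times that of the gene-poor ones (95% interval 0.830 to 0.960, adjusted p = 0.0121 over 5 measures). This p rests on the spread between windows, and the spread between chromosomes does not enter it; the other autosomes had means from 1.15 on chromosome 20 to 1.78 on chromosome 15. The call was lost on leaving out any of 3 chromosomes. In fits each across n = 7562 peaks less those of 1 chromosome, without chromosome 16 the ratio was 0.906 (adjusted p = 0.0893), without chromosome 19 it was 0.913 (0.141), and without chromosome 18 it was 0.905 (0.0558). Among better-scoring peaks, with a −log10 p at or above the median (n = 3783 peaks), it was 0.901 (adjusted p = 0.117). That score sets the height against the background, so this subset was chosen in part by the value compared. The ratio stayed below 1 in each of these fits.

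The lowest possible background showed the difference most plainly. A floor of 0.489 fragments was shared by 6.2% of all 7562 peaks. On chromosome 19, 29 of 160 peaks were at the floor (18.1%, exact binomial 95% interval 12.5 to 25.0), and on chromosome 16, 27 of 175 (15.4%, 10.4 to 21.6). These were ranks 2 and 3 of 23, after chromosome X with 33.3%. Chromosome 17 had 22 of 265 (8.30%, 5.28 to 12.3) and chromosome 22 had 4 of 70 (5.71%, 1.58 to 14.0), and both of these intervals include the share of the whole list. Chromosomes 4, 13 and 18 had 3.19%, 4.46% and 5.23%. On chromosomes 16 and 19 floor peaks were about as frequent before as after the largest peak-free interval, at 15.0% and 15.7% on chromosome 16 and at 18.6% and 17.8% on chromosome 19.

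**Figure D5:**
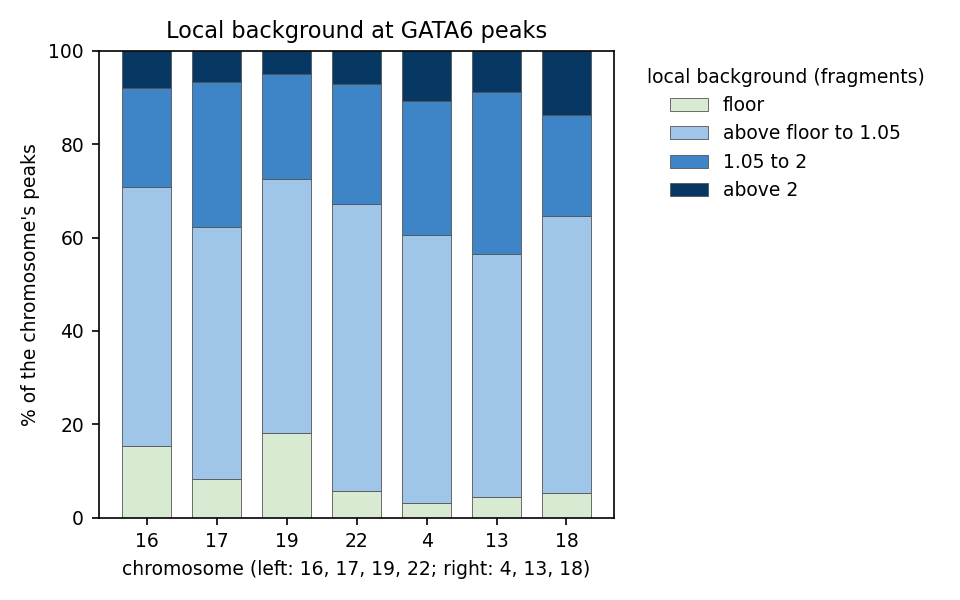
Share of each chromosome's peaks in 4 classes of local background, in fragments. Floor backgrounds make up 15.4% and 18.1% of peaks on chromosomes 16 and 19 against 3.19% to 5.23% on chromosomes 4, 13 and 18, and backgrounds above 2 make up 5.0% to 8.0% of peaks on the 4 gene-rich chromosomes against 8.91% to 13.7% on the gene-poor ones.

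Height and background went together within each of the 4 chromosomes, at a Spearman rho from 0.41 on chromosome 17 to 0.59 on chromosome 19. The background was derived from the height, and listed peaks were scored by height over background. Part of this rho can therefore come from how the values were made and selected, and it is not a separate result. Floor peaks had a median height of 10 on the 4 gene-rich chromosomes and in the whole list. Peaks above the floor had a median of 16 on the gene-rich chromosomes, also the same as in the whole list. At equal background class, chromosomes 16, 17, 19 and 22 together had medians of 14, 20 and 24 fragments in the 3 classes above the floor, and chromosomes 4, 13 and 18 had 13, 18 and 22. The whole list had 14, 18 and 23, so in the lowest of these classes the gene-rich median was that of the list. With the log2 background as a covariate, an alternative chosen after seeing the data, the mixed fit across n = 7562 peaks gave a height ratio of 1.053 for gene-rich over gene-poor chromosomes (1.002 to 1.106, adjusted p = 0.102), against 1.00 without it; the interval leaves out 1, but the adjusted p did not pass. The part of sequencing depth, DNA copy number and mappability in the background was not tested.

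The fold over background followed. Its median was 16.35 on chromosome 19, 16.04 on chromosome 22, 15.8 on chromosome 16 and 15.27 on chromosome 17, ranks 2 to 5 of 23 after chromosome X. Chromosomes 4, 13 and 18 had medians of 14.03, 13.91 and 13.48. Since the fold contains the background by construction, it is not a separate result. Across the 23 chromosomes the median fold and genes per Mb gave a Spearman rho of 0.56 and a Pearson r of 0.55, the share of floor peaks 0.52 and 0.29, and the mean background -0.32 and -0.24. Without chromosome X, the 22 autosomes gave 0.64 and 0.67 for the fold, 0.59 and 0.68 for the floor share and -0.37 and -0.37 for the mean background. The points share 1 list and 1 background measure.

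Among the 4 gene-rich chromosomes themselves, no pair passed in any of the 5 measures. Of the 30 pair contrasts from the quasi-Poisson and mixed fits, 0 had an adjusted p under 0.05, and 2 had an unadjusted p under 0.05, both between chromosomes 16 and 17. These were the density and the height. Chromosome 16 had 0.893 times the height of chromosome 17 (0.806 to 0.990, mixed fit across n = 7562 peaks, adjusted p = 0.467). That contrast set 175 peaks against 265, and the other peaks entered only the estimate of spread. For chromosome 22 the intervals were the widest, as it had only 70 peaks: the background of chromosome 17 was between 0.846 and 1.19 times that of chromosome 22. Among better-scoring peaks, heights of chromosome 17 were 1.21 times those of chromosome 19 (1.08 to 1.36, n = 3783 peaks, adjusted p = 0.0410), the 1 pair called in any setting.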

How the data were processed

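GATA6 chromatin immunoprecipitation was sequenced in 3 libraries of LS174T cells, beside 1 input library. Fragments of 50 to 250 bp were amplified for 12 cycles, per the labels' protocols, and CASAVA 1.8 and BWA 0.5.9-r16 are named with build hg19 in the submitters' processing notes. Not given in the sources used here were the peak caller, its control and any pooling of libraries. Per the file headers, the authors deposited for each peak its height (a signal of whole fragments), −log10 p and q, and a fold over local background, which is a ratio. The input and histone libraries were not analysed here.

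Computed from these were densities in 5 Mb windows, spacing, width and local background (height divided by fold). The peaks and measures were chosen with earlier results of these data known. Counts per window were fitted with a quasi-Poisson model (R 4.3.3) and log2 values per peak with mixed models (lme4 1.1.37, lmerTest 3.1.3), with chromosome as factor and Benjamini-Hochberg adjustment at 0.05 over 5 group tests or 30 pair tests. On simulated data, the quasi-Poisson fit was tested for density and the mixed fit for height, with no spread between chromosomes put in. Local background, width and distance were not simulated. The p-values of both fits measure spread between windows of 1 list, not between chromosomes or cultures. Group contrasts gave each chromosome of a set equal weight, whatever its number of peaks. The n given with a fit counts all its windows or peaks, while a contrast compares only those of the chromosomes named. Intervals of heights and shares (scipy 1.17.1) cover counting error only. Tables were made with Python 3.11.15 and pandas 2.3.3. Named on each chromosome were the 3 highest peaks, the largest fold, the widest, the 3 fullest bins, clusters of at least 4, the longest interval and the closest pair. Other named peaks and groups were chosen after their values were seen. No genome or annotation of build hg19 was used here, so no gene or sequence is given and sequence composition was not described.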

Additional observations from a re-analysis of the deposited data

Results flagged for a closer look

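A peak of 29 fragments lay on an unlocalised contig of chromosome 17, from 89406 to 89660, and was in none of the comparisons. It stands out as a signal outside the chromosomes compared. It was 255 bp wide, and its background of 3.99 gave it a fold of 7.27.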

How the results depend on the processing

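The ratio of local background stayed below 1 in all 13 alternatives and lost its call in 4, among better-scoring peaks (0.901) and on leaving out chromosome 16, 18 or 19. Leaving out each of the 7 chromosomes gave 0.876 to 0.913. The other 4 ratios passed no test, so a change of side carries no call. In the main fits, height and width were near 1, both at 1.00. Density was 1.15 (0.910 to 1.46) and distance 1.09 (0.777 to 1.54), with wider intervals. For width, ratios were 0.999874 with windows of 2 Mb, 0.984 among better-scoring peaks, 0.999 with peaks within 10 kb joined, and 0.990 to 1.01 leaving out chromosomes. For distance, they were 0.989 with windows of 2 Mb, 0.830 among better-scoring peaks and 0.998 to 1.19 leaving out chromosomes. Height ranged from 0.985 to 1.02 leaving out chromosomes and was 1.053 (1.002 to 1.106, adjusted p = 0.102, n = 7562 peaks) with log2 background as a covariate, the largest shift among its alternatives and one chosen after seeing the data. Density was 0.984 over occupied 1 Mb bins, an alternative chosen after seeing the data, and 1.06 to 1.27 leaving out chromosomes. Better-scoring peaks gave 1 called pair in height, against 0, but their score depends in part on the height. Hotspots numbered 14 at 8 summits and 1 at 15, against 3. Clusters numbered 0 at 5 kb and 6 at 20 kb, against 2. The causes of these shifts were not tested. No paired analysis was possible because the list holds no value per library, and for the same reason no library could be left out. Library depth is unknown, and the 70 peaks of chromosome 22 leave its intervals wide.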
